A study of Mus musculus with 8 samples.

Results

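The integrated stress response genes described here were the transcription factor Atf4 and 9 genes of its pathway (Atf5, Ddit3, Trib3, Chac1, Sesn2, Ddit4, Asns, Psat1 and Phgdh). They were picked by gene symbol from a list that was chosen with earlier results of these data known. All 10 were found among the 18770 genes of the expression table. The RNA-seq libraries came from depilated dorsal skin, described as dermis and hair follicles from which the epidermis between follicles had been taken off. Genes of suprabasal keratinocytes, cells above the basal layer, were present in every library. Of these, 9 of 10 were called higher in the AP group, against 6.33% of all genes tested. Which part of the skin their RNA came from was not tested. The comparison asked whether topical alpinetin, a plant flavonoid (AP), changed gene activity in skin relative to its vehicle (VC). Both groups were wildtype C57BL/6 mice (C57BL/6J in the study's methods) aged 7 to 8 weeks, with 4 libraries each, collected at D4, that is 4 days after depilation. VC skin received 20 µl of 65% ethanol daily, and AP skin received the same volume of 65% ethanol with 3 mg/ml alpinetin. The study describes 4 mice per group, but the numbers of the libraries (VC.1, VC.2 and so on) match no single labelled mouse.

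In the integrated stress response, kinases that sense amino acid shortage, misfolded protein, double-stranded RNA, heme deficit or mitochondrial distress phosphorylate the initiation factor eIF2. General translation then slows, while a few mRNAs with upstream open reading frames, among them those of Atf4, Atf5 and Ddit3, are translated better. ATF4 protein switches on genes of amino acid uptake and synthesis and, with DDIT3, genes of growth arrest and cell death, so mRNA levels report only a portion of the pathway.

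Values are read counts divided by a size factor of each library, called normalized counts, and are listed in the order of library numbers 1 to 4. Reads on genes outside the mitochondrial genome numbered 3080758 to 3762217 per VC library and 7561598 to 10594787 per AP library, so low genes were measured more finely in the AP group. Mitochondrially encoded genes took 48.4% ± 5.81 of all VC reads against 8.66% ± 2.63 of all AP reads (SD over 4 libraries per group; p = 0.0286 in an exact permutation test, two-sided, which can give no smaller p with 4 libraries against 4). Each log2 fold change is the AP mean minus the VC mean of log2(normalized counts + 1), positive where AP was higher, and a gene was called when its adjusted p from limma was under 0.05. All 10 genes passed the filter on low values and were tested among 15964 genes.

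Of the 10 genes, Atf5 and Ddit3 fell in the AP group and none rose. Across all genes tested, 4.0% were called lower and 6.33% were called higher. Since the 10 genes were chosen with earlier results of these data known, the shares of all genes beside their counts are a description only. Positive fold changes numbered 8537 and negative ones 7427 of the 15964. The 3 transcription factors all had negative fold changes, whereas 6 of the other 7 genes had positive ones that missed the threshold. The median log2 fold change was 0.23 over the 10 genes and 0.06 over all genes tested. At an unadjusted p under 0.05, limma counted 1 of the 10 genes as higher (Trib3) and 3 as lower, against 17% and 13.3% of all genes. edgeR, DESeq2 and limma-voom each called 0 of the 10 genes higher, against 6.28%, 9.72% and 4.48% of all genes. The same tools each called 2 lower, against 4.46%, 8.15% and 4.53%. With the thresholds of the study's methods (unadjusted p under 0.01 and fold change over 1.5), which were used there with DESeq2 and applied here to the limma values, 2 of the 10 genes were lower and 0 were higher, against 5.32% and 8.26% of all genes. Ranges of the VC and AP libraries were separate for the 2 called genes, both lower, and for 0 genes in the other direction, where 8.91% of all genes were lower and 10.3% higher without overlap.

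**Figure D1:**
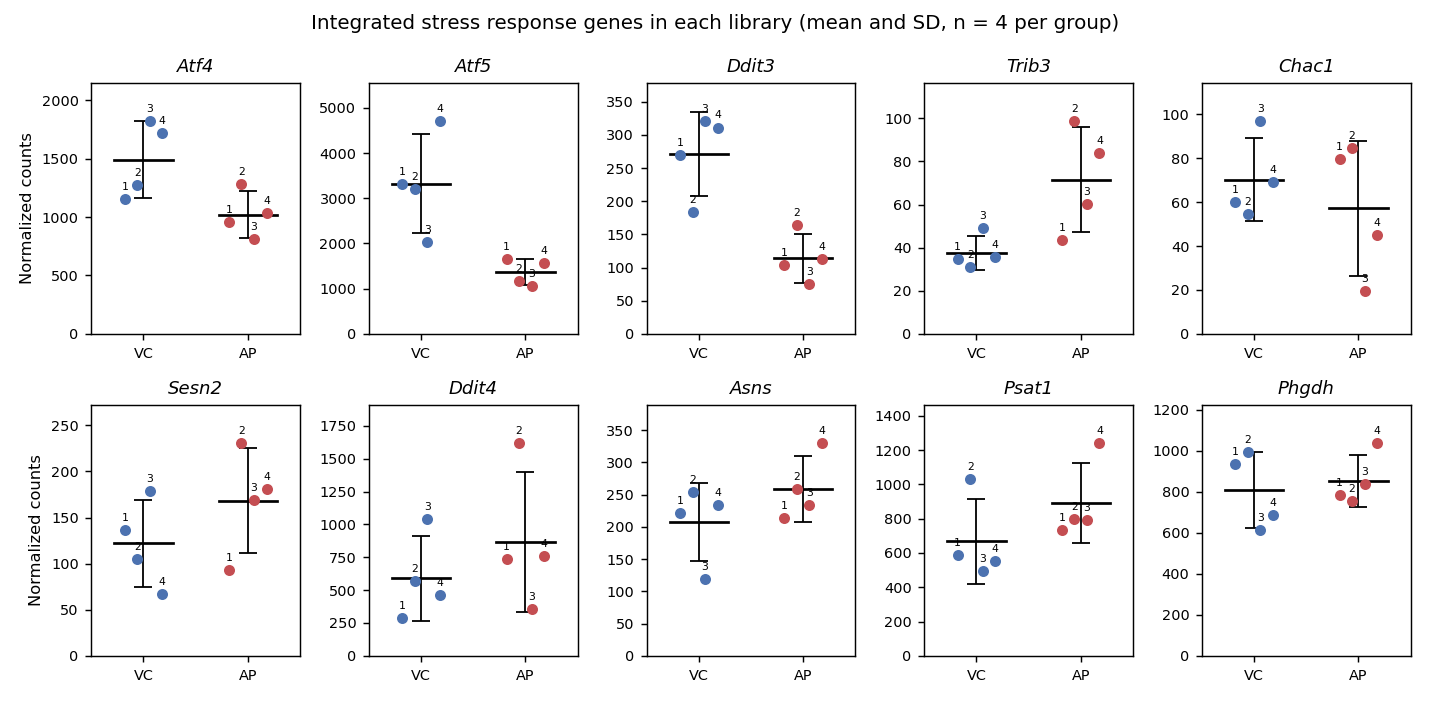
Normalized counts (vertical axes, from 0) of the 10 integrated stress response genes in the VC and AP groups. Each point is 1 library with its number, and bars give the mean and SD (n = 4). The AP libraries lie below all VC libraries for Atf5 and Ddit3, and the groups overlap for the other 8 genes.

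Atf4 encodes the bZIP transcription factor at the center of the response (ENSMUSG00000042406, chromosome 15 of GRCm38 from 80255184 to 80257541, plus strand). It had 1157, 1272, 1822 and 1718 normalized counts in the VC libraries against 955, 1286, 814 and 1031 in the AP libraries. VC.3 and VC.4 were high, and 3 of the 4 AP libraries lay below the lowest VC library, but AP.2 lay within the VC range. The VC mean was 1492 ± 327 and the AP mean 1021 ± 198 (SD, n = 4), a log2 fold change of -0.54 with a 95% interval from -0.97 to -0.11. This missed the threshold after adjustment (adjusted p = 0.093, limma).

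Atf5 encodes a related bZIP factor that acts in mitochondrial and proteotoxic stress (ENSMUSG00000038539, chromosome 7 from 44812256 to 44816658, minus strand). It had 3325, 3213, 2043 and 4708 normalized counts in the VC libraries against 1659, 1175, 1065 and 1579 in the AP libraries. Every AP library lay below the lowest VC library, VC.3, and the VC libraries spread more widely than the AP libraries. The AP mean was 1369.5 ± 293 and the VC mean 3322 ± 1091, and the log2 fold change was -1.24 (SE 0.25, adjusted p = 0.017, limma), lower in 4 of 4 AP libraries. In these bulk samples, fewer cells of a type that expresses a gene and less of its RNA per cell cannot be told apart. Exons of Atf5 share 82 bases with Il4i1 and Nup62 on the opposite strand, and no use of strand in counting was given in the sources used here, so reads there cannot be assigned with certainty.

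Ddit3 encodes CHOP, the bZIP partner of ATF4 that promotes cell death under lasting stress (ENSMUSG00000025408, chromosome 10 from 127290774 to 127296288, plus strand). It had 269, 183, 321 and 311 normalized counts in the VC libraries against 104, 164, 75.2 and 113 in the AP libraries. The groups were separate, with AP.2 and VC.2 nearest to each other and AP.3 the lowest. The group means were 271 ± 62.8 (VC) and 114 ± 37.2 (AP), and the log2 fold change was -1.26 (SE 0.27, adjusted p = 0.019, limma), lower in 4 of 4 AP libraries. Behind these values stood 124 to 305 reads per library. Ddit3 shares 6.09% of its 50-base words with a second annotated gene model of the same name and 68 exon bases with Mars on the opposite strand, so its count is less certain than that of Atf4, which shares none.

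With any 1 library left out, the log2 fold change lay between -1.46 and -1.05 for Atf5 and between -1.46 and -1.08 for Ddit3, and the adjusted p-values crossed the threshold in some fits. Without AP.3, the log2 fold change was -1.13 for Atf5 (adjusted p = 0.057, limma) and -1.08 for Ddit3 (adjusted p = 0.064), and the calls among all genes dropped to 209 higher and 94 lower. Without AP.4, Ddit3 was at -1.28 (adjusted p = 0.053, limma). When limma was run without its intensity trend, a setting chosen after seeing the data, the estimates were identical and the adjusted p was 0.052 for Atf5 and 0.051 for Ddit3. Scaled by total counts without the mitochondrially encoded genes, Atf5 was at -1.20 (adjusted p = 0.014, limma) and Ddit3 at -1.22 (adjusted p = 0.024). Both were also called with upper-quartile factors (adjusted p = 0.015 and 0.017, limma) and with the TMM factors of edgeR (adjusted p = 0.016 and 0.017). Over all settings tried, adjusted p-values ranged from 0.000135 to 0.135 for Atf5 and from 0.000673 to 0.258 for Ddit3. Of the scalings tried, the one by total counts that include the mitochondrial reads moved the median of all genes by 0.84 on the log2 scale and ended both calls (log2 fold changes of -0.37 and -0.40). Relative to the median of all genes, a value added after seeing the data, Atf5 stood at -1.27 under that scaling and at -1.30 under the deposited one, and Ddit3 at -1.30 and -1.32. A scaling moves all genes of a library alike, so these pairs are close by construction and do not test the calls. Under total counts the fold changes of Atf4 and Chac1 became positive, whereas Trib3, Sesn2, Ddit4, Asns, Psat1 and Phgdh were called higher.

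Trib3 encodes a pseudokinase that ATF4 and CHOP induce and that restrains both (ENSMUSG00000032715, chromosome 2 from 152337422 to 152344032, minus strand). It had 34.6, 31.0, 49.2 and 35.6 normalized counts in the VC libraries against 43.5, 98.7, 60.3 and 83.7 in the AP libraries. Of the AP libraries, 3 lay above all VC libraries, and AP.1 lay within their range. The log2 fold change of 0.87 (95% interval from 0.14 to 1.59) was opposite in sign to that of Ddit3 and missed the threshold (adjusted p = 0.109, limma). The gene rested on 19 to 36 reads in the VC libraries.

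Chac1, a glutathione-degrading enzyme induced by ATF4 (ENSMUSG00000027313, chromosome 2 from 119351229 to 119354381, plus strand), had 60.0, 54.7, 96.9 and 69.4 normalized counts in the VC libraries against 79.8, 84.7, 19.4 and 45.1 in the AP libraries. AP.1 and AP.2 lay within the VC range and AP.3 and AP.4 below it. Its log2 fold change was -0.46 with a 95% interval from -1.43 to 0.51.

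Sesn2, a leucine sensor that holds back mTORC1 (ENSMUSG00000028893, chromosome 4 from 132492032 to 132510501, minus strand), had 136, 105, 179 and 67.5 normalized counts in the VC libraries against 92.8, 231, 169 and 181 in the AP libraries. The groups overlapped, with AP.2 highest and VC.4 lowest. Its log2 fold change was 0.48 with a 95% interval from -0.27 to 1.22.

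Ddit4, or REDD1, another inhibitor of mTORC1 that also responds to hypoxia and glucocorticoids (ENSMUSG00000020108, chromosome 10 from 59949669 to 59951834, minus strand), had 286, 566, 1038 and 465 normalized counts in the VC libraries against 739.8, 1618, 359 and 757 in the AP libraries. Both groups held a high library, VC.3 and AP.2. AP.2 lay above the VC range, and AP.1, AP.3 and AP.4 lay within it. The log2 fold change was 0.51 with a 95% interval from -0.45 to 1.48, and the SD in the AP group (532) was large beside the mean (868).

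The 3 enzymes make amino acids. Asns, asparagine synthetase (ENSMUSG00000029752, chromosome 6 from 7675169 to 7693254, minus strand), had 222, 254, 119 and 234 normalized counts in the VC libraries against 213, 259, 234 and 329.7 in the AP libraries. VC.3 was low and AP.4 high, with the other libraries side by side. Its log2 fold change was 0.36 with a 95% interval from -0.20 to 0.91.

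Psat1, the aminotransferase of serine synthesis (ENSMUSG00000024640, chromosome 19 from 15904678 to 15947337, minus strand), had 586, 1031, 497 and 553 normalized counts in the VC libraries against 733, 800.1, 789 and 1240.2 in the AP libraries. VC.2 and AP.4 each stood far above the rest of their group. The log2 fold change was 0.45 with a 95% interval from -0.09 to 0.98.

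Phgdh, the first enzyme of serine synthesis (ENSMUSG00000053398, chromosome 3 from 98313170 to 98339990, minus strand), had 935, 995, 612 and 688 normalized counts in the VC libraries against 783, 755, 836 and 1036 in the AP libraries. VC.3 and VC.4 lay below all AP libraries and AP.4 above all VC libraries, while VC.1 and VC.2 lay above AP.1, AP.2 and AP.3. Its log2 fold change was 0.10 with a 95% interval from -0.32 to 0.51. The count is uncertain, since 63.1% of the 50-base words of its transcript also occur in other genes, of which Gm7901, Gm9347 and Gm8341 share the most.

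Within each group the regulators and the enzymes peaked in different libraries. Among the VC libraries, VC.3 held the highest value of 6 genes (Atf4, Ddit3, Trib3, Chac1, Sesn2 and Ddit4) and the lowest of 4 (Atf5, Asns, Psat1 and Phgdh). In the AP group, AP.2 held the highest value of the same 6 genes, and AP.4 that of Asns, Psat1 and Phgdh. VC.2 likewise held the highest values of these 3 enzymes among the VC libraries. AP.3 held the lowest value of 5 genes (Atf4, Atf5, Ddit3, Chac1 and Ddit4). This pattern was noticed after the values were seen and has no test.

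The ratio of a gene to Atf4 in the same library does not depend on how libraries are scaled. It was computed after seeing the data and is given as a description. For Ddit3, the log2 ratio was -2.10, -2.80, -2.51 and -2.46 over the VC libraries against -3.20, -2.97, -3.44 and -3.19 over the AP libraries. Ddit3 was therefore lower relative to Atf4 in every AP library than in any VC library. The gap between VC.2 (-2.80) and AP.2 (-2.97) was narrower than the spread within either group. For Trib3, the log2 ratio was -5.07, -5.36, -5.21 and -5.59 over the VC libraries against -4.46, -3.70, -3.76 and -3.62 over the AP libraries, higher in every AP library. For Asns, the log2 ratio lay between -3.94 and -2.32 in the VC group and between -2.31 and -1.64 in the AP group, a gap narrower than the spread within either group. Of the 9 ratios, 2 were higher and 1 was lower in the AP group without overlap, where 24.1% of all genes had a higher and 0.570% a lower ratio to Atf4 without overlap. The ratio of Atf5 to Atf4 overlapped, since VC.3 stood at 0.17 and the AP libraries between -0.13 and 0.80.

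Per kilobase of the longest transcript, Atf5 had the highest mean level of the 10 genes in both groups, with 1829 normalized counts per kilobase for VC and 754 for AP. Atf4 followed with 739 and 506. Trib3 was the lowest of the VC group at 18.6 normalized counts per kilobase, and in the AP group it stood at 35.3, just above Chac1. Ddit3 stood at 279.8 normalized counts per kilobase in the VC group, above Asns (103), and at 118 in the AP group, below Asns (128). Levels were not tested between genes.

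The genes whose log2 levels followed Atf4 most closely over the 8 libraries, after each group's mean was subtracted, were Clec14a (Pearson r = 0.99), Banp (0.97), Cnn1 (0.96), Ubfd1 (0.95) and Mmp17 (0.95). They are the top 5 of 11256 genes with a mean of at least 50 normalized counts, so high values of r are found by searching, and the libraries share their depth and scaling. Of the members, Ddit4 (r = 0.85, rank 122) and Ddit3 (r = 0.83, rank 179) stood nearest to Atf4. Phgdh had the most negative value, with r = -0.69.

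The promoters of all 10 genes were found in the RefSeq table (GRCm38.p6), from 250 bases before to 50 after the gene start. They were searched on both strands for TGATGNAAN, the core of the C/EBP-ATF response element that ATF4 binds with C/EBP partners. It was present for 3 of the 10 genes (Chac1, Trib3 and Asns) and for 4.50% of 27025 genes. These windows are shown because the 3 genes carry the motif yet differed in the direction of their fold changes, none of which passed the test. Each is printed 5′ to 3′ along the strand that reads the motif, with the match in capitals.
Chac1, chr2:119351038-119351066, minus strand: ctggcaggagTGATGCAACggcagggaag
Trib3, chr2:152344029-152344057, plus strand: cccgcccggcTGATGTAAAcctgagctaa
Asns, chr6:7693214-7693242, minus strand: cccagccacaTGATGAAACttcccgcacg
The Chac1 match begins 194 bases before the RefSeq gene start, outside any gene or exon of GENCODE M21. The Trib3 match begins 14 bases after the RefSeq start on the strand opposite to the gene, and 4 bases of its window lie in the annotated 5′ untranslated region. The Asns match begins 23 bases before the RefSeq start, and GENCODE M21, whose Asns transcripts start further out, places the window in the 5′ untranslated region. A match is a description of sequence, and binding of ATF4 was not measured.

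Of the 116 other genes of the pathway in the table, 113 were tested, 6 were called higher and 5 lower, with a median log2 fold change of 0.12. These shares are near those of all genes tested (6.33% higher and 4.0% lower), so the called genes described in the following paragraphs are single genes and not a result about the pathway. edgeR called 6 higher and 5 lower, DESeq2 13 and 5 and limma-voom 5 and 5, and at an unadjusted p under 0.05 limma counted 22 and 6. Without the intensity trend, Atf6 and Clpp were the only 2 of the 11 genes still called (adjusted p from 0.056 to 0.095 for the other 9, limma). Slc7a3, Fgf21 and Adm2 were too low to test. The motif was present in the promoters of 15 of the 90 pathway genes matched by symbol (16.7%), among them Atf3, Nupr1 and Pycr1.

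**Figure D2:**
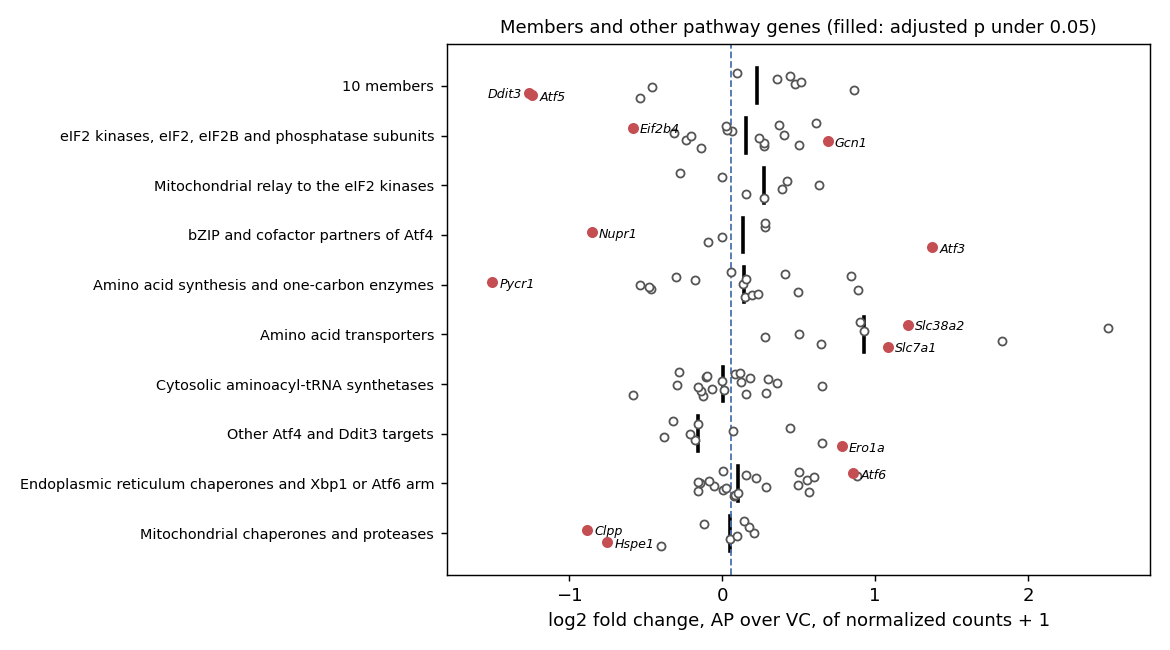
Log2 fold changes of AP over VC (horizontal axis) for the 10 genes and for 9 lists of other pathway genes (rows). Each point is 1 tested gene, filled where the adjusted p from limma was under 0.05. Black bars mark each list's median and the dashed line the median of all genes tested, 0.06. Amino acid transporters all lie to the right of 0 (median 0.93), and tRNA synthetases spread evenly around it (median 0.01). Of all 15964 genes tested, 8537 had positive fold changes. Under scaling by total counts the median of all genes moves by 0.84.

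Among the partners of ATF4, 1 of 6 was called higher and 1 lower. Atf3, a stress-induced bZIP repressor, averaged 77.3 ± 29.4 normalized counts under VC and 197 ± 64.1 under AP (log2 fold change 1.37, SE 0.35, adjusted p = 0.033, limma). Nupr1, a small stress-induced chromatin protein, moved the other way, from 799 ± 231 to 437 ± 101 (-0.85, SE 0.23, adjusted p = 0.039, limma). Cebpb, the most abundant gene of this list, had a log2 fold change of -0.09. The call of Atf3 was lost without VC.1, AP.1, AP.2 or AP.3 (adjusted p from 0.058 to 0.105, limma; 0.00111 to 0.105 over all settings). That of Nupr1 was lost without VC.1, VC.4, AP.2, AP.3 or AP.4 (adjusted p from 0.077 to 0.121, limma; 0.0102 to 0.945 over all settings).

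The 9 tested amino acid transporters all had positive fold changes, with a median of 0.93, and 2 of them rose. Of all 15964 genes tested, 8537 had positive fold changes and 6.33% were called higher. DESeq2 called 5 transporters higher (9.72% of all genes), and edgeR and limma-voom called 2 each (6.28% and 4.48%). In limma, 6 transporters were higher at an unadjusted p under 0.05, against 17% of all genes. The list was not tested as a set. Slc38a2, the sodium-coupled carrier of small neutral amino acids, had 455, 943, 1092 and 542 normalized counts in the VC libraries against 1273, 1938, 1904 and 1566 in the AP libraries. The lowest AP library exceeded the highest VC library (log2 fold change 1.21, SE 0.27, adjusted p = 0.023, limma). Slc7a1, the carrier of cationic amino acids, averaged 199 ± 53.1 normalized counts under VC and 418 ± 90.9 under AP (1.08, SE 0.24, adjusted p = 0.023, limma). The call of Slc38a2 was lost without VC.1, AP.2, AP.3 or AP.4 (adjusted p from 0.0503 to 0.076, limma; 0.00124 to 0.076 over all settings). That of Slc7a1 was lost without AP.2, AP.3 or AP.4 (adjusted p from 0.068 to 0.074, limma; 0.000926 to 0.074 over all settings).

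Other genes of the pathway make amino acids or load them onto tRNA. Of 16 other enzymes of amino acid synthesis and one-carbon metabolism, Pycr1, which makes proline, was the only one called by limma and fell from 153 ± 50.9 to 55.4 ± 23.4 normalized counts (log2 fold change -1.50, SE 0.35, adjusted p = 0.025, limma). Its call was lost without VC.1, VC.4, AP.3 or AP.4 (adjusted p from 0.054 to 0.082, limma; 0.00149 to 0.135 over all settings), and under total counts (-0.64, adjusted p = 0.135, limma). DESeq2 called 1 enzyme higher and 1 lower, edgeR and limma-voom 0 higher and 1 lower, and limma counted 1 in each direction at an unadjusted p under 0.05. Glul, glutamine synthetase and the most abundant of these, had a log2 fold change of 0.06. Of 20 cytosolic aminoacyl-tRNA synthetases, many of which ATF4 regulates, 0 were called by limma, and at an unadjusted p under 0.05 there was 1 higher and 1 lower. Their median log2 fold change was 0.01, and Nars, the most abundant, was at 0.00. edgeR and limma-voom also called 0 of them, and DESeq2 called 1 higher.

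Upstream of Atf4, 1 of 16 genes of the eIF2 kinases, eIF2, eIF2B and the phosphatase was called higher and 1 lower. edgeR, DESeq2 and limma-voom also called 1 in each direction. At an unadjusted p under 0.05, limma counted 4 higher and 1 lower, against 17% and 13.3% of all genes. Gcn1, the activator of the amino acid sensing kinase GCN2, rose from 318 ± 63.5 to 504 ± 20.03 normalized counts (log2 fold change 0.69, SE 0.18, adjusted p = 0.034, limma). Eif2b4, a subunit of the exchange factor of eIF2, fell from 459.6 ± 73.9 to 304 ± 32.2 (-0.59, SE 0.17, adjusted p = 0.047, limma). The call of Gcn1 was lost without VC.1, AP.1, AP.2, AP.3 or AP.4 (adjusted p from 0.0504 to 0.098, limma; 0.000895 to 0.349 over all settings), and that of Eif2b4 held only without VC.3 or VC.4 (otherwise 0.054 to 0.136; 0.0123 to 0.230 over all settings). Eif2b4 was also not called with reads drawn down (adjusted p = 0.080, limma) or under total counts without the mitochondrially encoded genes (0.054). Eif2s2, the most abundant, had a log2 fold change of -0.20. Of the 7 genes of the mitochondrial relay to these kinases, 0 were called by limma, edgeR, DESeq2 or limma-voom, and 2 were higher at an unadjusted p under 0.05 in limma. Phb2 was the most abundant of them, at -0.28.

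Of 9 mitochondrial chaperones and proteases, 2 fell. Clpp, a matrix protease, had 320.2, 344, 311 and 296 normalized counts in the VC libraries against 176, 161, 159 and 192 in the AP libraries. The groups were far apart (log2 fold change -0.88, SE 0.16, adjusted p = 0.011, limma), and the call held with any 1 library left out. Hspe1, the cofactor of the matrix chaperonin, fell by 0.75 on the log2 scale (SE 0.19, adjusted p = 0.034, limma), and Hspd1, the chaperonin itself and the most abundant gene of the list, had -0.40 with a 95% interval from -0.82 to 0.03. The call of Hspe1 was lost without VC.1, VC.2, AP.2 or AP.3 (adjusted p from 0.062 to 0.110, limma; 0.00596 to 0.580 over all settings). Under total counts the log2 fold change of Clpp was -0.02 (adjusted p = 0.946, limma; from 4.16e-06 over all settings), and those of Hspe1, Nupr1 and Eif2b4 were positive.

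In the arm of the unfolded protein response run by Xbp1 and Atf6, 1 of 21 genes was called, Atf6 itself (log2 fold change 0.86, SE 0.18, adjusted p = 0.020, limma). DESeq2 called 3 of them higher and edgeR and limma-voom 1 each. At an unadjusted p under 0.05, limma counted 6 higher and 0 lower, against 17% and 13.3% of all genes. Of the 21 fold changes, 16 were positive, against 8537 of 15964 over all genes tested. Hspa5, the main chaperone of the endoplasmic reticulum, had a log2 fold change of 0.08 with a 95% interval from -0.39 to 0.55. Among 9 tested genes of a list of other targets of ATF4 and DDIT3, Ero1a, an oxidase of the endoplasmic reticulum, was called higher (0.78, SE 0.22, adjusted p = 0.047, limma), and Map1lc3b, the most abundant, was at -0.32. The call of Atf6 was lost without AP.2, AP.3 or AP.4 (adjusted p from 0.0501 to 0.080, limma; 0.000671 to 0.098 over all settings). That of Ero1a held only without VC.2 or AP.1 (otherwise 0.061 to 0.143; 0.00125 to 0.143 over all settings). With all libraries, Ero1a was also not called by limma-voom (adjusted p = 0.061) or by limma with no filter (0.052), upper-quartile factors (0.056) or total counts without the mitochondrially encoded genes (0.052).

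Transcript lengths of the called genes, compared after seeing the data, moved with the calls. The longest transcript had a median of 6648 bases over the 6 pathway genes called higher and 2025 over the 5 called lower, beside 4707 and 2088 over all genes called higher and lower. The 10 genes themselves had a median of 1954.5 bases, with Ddit3 the shortest at 969. With a trend on length removed, a planned setting, Atf5 (log2 fold change -1.10, adjusted p = 0.020, limma) and Ddit3 (-1.01, adjusted p = 0.047) were still called. The calls among the other pathway genes numbered 2 higher (Atf3 and Slc38a2) and 2 lower (Pycr1 and Clpp). Gcn1 then stood at 0.24 and Atf6 at 0.46 on the log2 scale.

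Several other measurements differed between the groups. Of 10 genes of suprabasal keratinocytes, 9 rose, and their summed levels were 5586, 11943, 8154 and 5351 normalized counts in the VC libraries against 41858, 39753, 117893 and 165123 in the AP libraries. Krt10 was the most abundant of them and none was at 0. The sources describe these samples as free of the epidermis between follicles. How completely that epidermis was taken off in each library, and which part of the skin this RNA came from, was not tested. Of 7 genes of skeletal muscle, led by Acta1 and none at 0, all had negative fold changes (median -1.74) and limma called 1 (Tnnc2, adjusted p = 0.0497), whose groups overlapped. limma-voom also called 1 lower and edgeR and DESeq2 called 0, while 5 were lower at an unadjusted p under 0.05 in limma. Their sums were 42669.8, 66878, 34131 and 33225 in the VC libraries and 66446, 8354, 4919 and 10594 in the AP libraries. AP.1 thus held muscle RNA at the VC level, and among the AP libraries it also held the lowest Trib3, Sesn2, Asns and Psat1 and the highest Atf5. It held neither the highest nor the lowest Atf4, Ddit3, Chac1, Ddit4 or Phgdh of its group. Its Atf5 (1659 normalized counts) still lay below the lowest VC library (2043). These ranks were seen after the fact, and a link to muscle RNA was not tested. AP.3 had the lowest muscle sum and the lowest mitochondrial share (5.32%), and without it Atf5 and Ddit3 were at -1.13 and -1.08 on the log2 scale. In the endothelium list limma, edgeR and limma-voom called 2 of 5 genes higher and DESeq2 called 4 (Pecam1 the most abundant). All 5 had positive fold changes (median 1.44). Of 12 tested mitochondrially encoded genes, limma called 10 lower and edgeR and limma-voom called all 12. The other pair, mt-Co1 and mt-Cytb, had log2 fold changes of -3.37 and -3.38 and groups that did not overlap (adjusted p = 0.18 and 0.058, limma). Fibroblast genes, led by Col1a1, and hair matrix and hair shaft genes, led by Krt35, were present in every library, with 0 of 7 and 0 of 6 called by limma, edgeR or limma-voom. DESeq2 called 1 fibroblast gene lower, and at an unadjusted p under 0.05 limma counted 1 fibroblast gene higher and 1 lower and 1 hair gene higher. Of the 6 hair genes, that 1 had a positive fold change and the other 5 had negative ones (median -0.47). Of the 7 fibroblast genes, 5 had positive and 2 negative fold changes (median 0.41). Called higher were 3 of 6 genes of basal keratinocytes (Itga6, Itgb4 and Col17a1), 2 of 5 of smooth muscle (Acta2 and Myh11) and 1 of 3 of red blood cells (Hbb-bs, the most abundant of them). The median log2 fold change was 1.07 for the basal keratinocyte list, 1.05 for smooth muscle and 0.95 for red blood cells. The most abundant basal keratinocyte gene, Krt14, and the most abundant smooth muscle gene, Des, were not called (log2 fold changes of 1.02 and -1.33). In adipocytes (7 genes, led by Fabp4), leukocytes (6, led by Cd74) and sebaceous gland (5, led by Scd1), limma, edgeR and limma-voom called 0 genes, and DESeq2 called 1 leukocyte gene lower. At an unadjusted p under 0.05, limma counted 2 adipocyte genes and 1 leukocyte gene as higher and 2 leukocyte genes as lower. With reads drawn down to 3080758 per library, Atf5 was at -1.27 (adjusted p = 0.014, limma), Ddit3 at -1.32 (adjusted p = 0.014) and Atf4 at -0.57 (adjusted p = 0.082). The part of cell composition in the values of Atf4 and its pathway was not tested.

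Genes of other inputs to Ddit4 and the paralogs of the members were counted beside them. Of 11 hypoxia-induced genes, all had positive fold changes, against 8537 of all 15964 genes tested. Of these 11, limma, edgeR and limma-voom each called 2 higher, against 6.33%, 6.28% and 4.48% of all genes. DESeq2 called 3 higher, against 9.72%. At an unadjusted p under 0.05, limma counted 5 higher, against 17% of all genes. The list was not tested as a set. Egln3 had a log2 fold change of 1.48 (adjusted p = 0.021, limma), and its call was lost without AP.3 or AP.4 (adjusted p = 0.0502 and 0.055; 0.000680 to 0.059 over all settings). Slc2a1 had 1.70 (adjusted p = 0.032, limma) with groups that overlapped, and its call held only without VC.2 or AP.1 (otherwise 0.054 to 0.089; 0.00149 to 0.089 over all settings). Ndrg1, the most abundant, was at 0.38. Of 8 glucocorticoid-induced genes, 0 were called by limma, edgeR or limma-voom, DESeq2 called 1 lower, and 1 was higher and 1 lower at an unadjusted p under 0.05. Of 6 paralogs of the members, 0 were called by any of these tools, with 1 lower at an unadjusted p under 0.05, and Sesn1, the most abundant, had a log2 fold change of -0.37.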

How the data were processed

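Normalized counts, a signal that the authors deposited, are reads per gene divided by 1 DESeq2 size factor per library. Reads had been aligned to mm10 with STAR and counted with featureCounts per the study's methods, while the submitters' processing notes name HTSeq; versions were not given in the sources used here. All 150160 values (100%) were whole multiples of 1 step per library within 0.01 reads, so reads were recovered, 6454563 to 11190113 per library. The 6 columns of the authors' own comparison (mean, fold change, its error, statistic and p-values) were not used. The design's test fits this unit. It was limma 3.58.1 (R 4.3.3) with an intensity trend on log2(value + 1), for genes that reached 3 normalized counts in 4 or more libraries, with Benjamini-Hochberg adjustment over 15964 genes. On recovered reads, edgeR 4.0.16 (quasi-likelihood, TMM) called 1003 genes higher and 712 lower; DESeq2 1.42.0 and limma-voom were also run. Other alternatives were pseudocounts, filters, scalings, reads drawn down to 3080758, removal of a length trend and each library left out. The steps were tested on simulated data: an initial target for recovery was missed and then replaced by one for the larger changes, which were recovered, while many of the smaller ones went uncalled. A member that missed the threshold is therefore not shown to be unchanged. Of 18770 identifiers, 18766 were in GENCODE M21 (GRCm38), the source of positions and lengths. Replicates of each group differed beyond sampling noise (chi-square per degree of freedom 15.8 to 78.9). All members were named, and from the lists of other pathway genes the called genes and the most abundant. From the remaining lists only some of the called or most abundant genes were named. Raw reads were not used, and 1 list of cell type markers is not reported here. Members and lists were chosen with earlier results of these data known.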

Additional observations from a re-analysis of the deposited data

Results flagged for a closer look

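Psat1 had a library far from the others in each group by Dixon's test for 4 values. In VC.2 it reached 1031.48 normalized counts, with the other VC libraries between 497 and 586. In AP.4 it reached 1240.23, with the other AP libraries between 733 and 800.1. Chance marks about 1 in 20 groups, and 20 groups were examined (10 genes in 2 groups), of which 2 were marked. The same 2 libraries also held the highest Asns and Phgdh of their groups.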

How the results depend on the processing

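Over 21 alternative settings, 193 of 210 values of the 10 genes kept their direction and side of the threshold, 7 lost and 6 gained a call, and 4 reversed. Under total counts, Atf4 was at 0.33, Chac1 at 0.39, Eif2b4 at 0.28, Nupr1 at 0.017 and Hspe1 at 0.12 on the log2 scale, with 6 members called higher and 0 lower, 94 and 0 other pathway genes, and 8657 and 70 of all genes. That scaling divides by totals that hold the mitochondrial reads. DESeq2 called 13 other pathway genes higher, and 1677 higher and 1407 lower of all genes. With the length trend removed, 2 and 2 other pathway genes and 578 genes in all (higher) were called. Without the intensity trend, chosen after seeing the data, 0 members, 1 and 1 other pathway genes, and 376 and 216 of all genes were called. With upper-quartile factors, 890 genes were higher and 892 lower, against 1011 and 639. The cause of these shifts was not tested.

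With each library left out, 0 members were called higher in any fit, and lower members numbered 0 (without AP.3) to 2, other pathway genes 0 to 12 higher and 1 to 5 lower, and all genes 209 to 1082 higher and 94 to 817 lower. Without AP.3, 209 genes were higher and 94 lower; without AP.4, 254 and 139; without AP.2, 398 and 155; without VC.1, 585 and 261. Phgdh ranged from -0.027 (without VC.3) to 0.21, and was at -0.001 without AP.4. The difference in mitochondrial share lay between -41.9 and -37.8 percentage points. No paired analysis was possible because the labels give no shared replicate numbers and the columns are tied to no single sample. Trib3, Chac1 and Sesn2 had as few as 19, 33 and 36 reads in a library; with reads drawn down to 1 depth they were at 0.85, -0.55 and 0.49 on the log2 scale.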
